A study of Mus musculus with 11 samples.

Results

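The synaptic vesicle and release machinery genes are 43 listed genes whose proteins store transmitter in vesicles, dock the vesicles at the presynaptic membrane, fuse them on calcium entry and retrieve them afterwards. Of these, 42 were matched to an array probe through its RefSeq accession, and the brightest probe stood for each gene. No probe matched Syt5, which was not analysed here. Syn1 and Syt1 each lacked a value on 1 array, so 40 genes entered the fit over 25998 features, of which 16033 have a gene symbol.

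RNA from right hemisphere cortex of 22 mice, 5 to 7 months old and on a C57/Bl6J background, was hybridised to 11 Agilent 2-colour arrays, each carrying 1 mouse in Cy5 and another in Cy3. TC mice (n = 6) carried the transgenes GFA2-tTa and TetO-VP16-CREB and a cryolesion. WTC mice (n = 5) were wild type with a cryolesion. T mice (n = 5) carried the transgenes and were intact, and WT mice (n = 6) were wild type and intact. WTC was paired with WT on 2 arrays (A and B) and TC with T on 2 (I and J). TC was paired with WTC on 3 arrays, T with WT on 3 and TC with WT on 1. Each group ratio thus also draws on arrays of other pairs. The GFA2 promoter drives the transactivator in astrocytes, so VP16-CREB, a CREB that is active without stimulation, is directed to astrocytes and not to the neurons that express most release genes. The injury was a contact with dry ice lasting 30 s, and the mice were killed 3 days afterwards. Each mouse is 1 sample, so p-values measure the spread between mice. Low levels of Y-linked genes read 4 mice as female. These were the WT mice of arrays E and F, the T mouse of array I and the WTC mouse of array M. The main fit had no sex term.

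In neurons, synaptic vesicles are held by synapsins, tethered by Rab3 and its RIM effectors at the active zone, and primed by Munc13 proteins (Unc13a, Unc13b). Fusion is driven by SNARE proteins on the vesicle (Vamp1, Vamp2) and the plasma membrane (Stx1a, Snap25), clamped and promoted by complexins and triggered by calcium binding to synaptotagmins. Dynamin, amphiphysin, endophilin (Sh3gl2) and synaptojanin then take membrane back into the terminal. In bulk cortex, fewer neurons in the sample and less RNA per neuron cannot be told apart.

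CREB binds the palindrome TGACGTCA or its shorter part TGACG. Promoter windows of 300 bases around the gene start (RefSeq, GRCm38.p6) were found for 31 of the 43 genes, 41 windows in all. TGACGTCA, searched on both strands, occurred in 2 windows (4.88%), those of Syn1 and Sh3gl2, against 1.79% of all 32851 windows. TGACG on either strand, which is also part of every full palindrome, occurred in 9 windows (22%), against 20.8% of all windows. The GC box letters GGGCGG, on either strand, occurred in 25 windows (61%), against 35.7%. TTCAGCACC, on either strand, which is part of the element bound by the neuronal gene repressor REST, occurred in 2 windows (4.88%), those of Syn1 and Unc13a, against 0.371%. Shown are both windows with the full palindrome, that of Cplx1 and the first of 2 windows of Rab3a, genes whose levels in lesioned wild type mice are described below. The second Rab3a window holds 0 matches to TGACG. Capitals mark TGACG and its reverse complement, and the letters are a description, not a binding site.
Syn1, chrX:20920869-20921168, minus strand: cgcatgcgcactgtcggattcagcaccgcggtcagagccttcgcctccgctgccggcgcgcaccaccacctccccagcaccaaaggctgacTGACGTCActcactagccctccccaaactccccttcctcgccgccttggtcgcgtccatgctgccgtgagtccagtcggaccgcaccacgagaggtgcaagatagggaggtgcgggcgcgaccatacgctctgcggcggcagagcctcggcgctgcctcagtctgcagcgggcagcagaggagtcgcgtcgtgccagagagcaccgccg
Sh3gl2, chr4:85205206-85205505, plus strand: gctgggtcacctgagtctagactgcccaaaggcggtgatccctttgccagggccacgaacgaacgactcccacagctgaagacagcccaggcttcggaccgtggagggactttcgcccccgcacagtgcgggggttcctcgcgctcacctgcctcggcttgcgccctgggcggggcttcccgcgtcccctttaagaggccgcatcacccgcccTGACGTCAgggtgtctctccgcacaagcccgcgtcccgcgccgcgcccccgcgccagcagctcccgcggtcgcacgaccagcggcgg
Cplx1, chr5:108549978-108550277, minus strand: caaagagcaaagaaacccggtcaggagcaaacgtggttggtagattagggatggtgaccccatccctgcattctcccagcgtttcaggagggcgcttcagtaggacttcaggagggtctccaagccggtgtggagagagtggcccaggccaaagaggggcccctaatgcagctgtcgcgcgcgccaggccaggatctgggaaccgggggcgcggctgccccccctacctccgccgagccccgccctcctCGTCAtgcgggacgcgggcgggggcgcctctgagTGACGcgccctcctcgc
Rab3a, chr8:70754453-70754752, plus strand: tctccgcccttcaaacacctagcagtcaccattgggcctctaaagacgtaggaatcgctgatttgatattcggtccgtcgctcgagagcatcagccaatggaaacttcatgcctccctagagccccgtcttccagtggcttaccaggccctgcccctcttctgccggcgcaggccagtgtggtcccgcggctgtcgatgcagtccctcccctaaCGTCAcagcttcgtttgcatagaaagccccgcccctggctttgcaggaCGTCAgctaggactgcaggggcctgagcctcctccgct

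Levels are log2 channel intensities after normalization, and differences are log2 ratios with their standard error (SE) from 1 limma fit to the array ratios. Levels of different genes come from different probes and are not set against each other. Between 55.4% and 64.4% of probes were well above background in a channel, and every fitted member was so in at least 21 of 22 channels. Gfap, an astrocyte filament gene read as a check of the lesion, was at 13.94 to 15.68 in TC and 14.02 to 15.73 in WTC, against 11.96 to 12.73 in T and 11.14 to 12.55 in WT, with no overlap between lesioned and intact mice. Creb1 differed by 0.05 ± 0.15 between T and WT (adjusted p = 0.985, limma), and whether its probe reads the transgene is not known. Of 15 pan-neuronal markers, 14 passed the filter.

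Mice of 2 arrays stood apart. The TC mouse of array I averaged 9.97 over 11 microglia and macrophage markers, inside the range of T mice (9.86 to 10.06) and below the other TC mice (11.09 to 12.32). Over 12 reactive astrocyte markers it averaged 9.88, below the other TC mice (11.06 to 12.34) and above T mice (9.13 to 9.34). Its channel label calls it T, while the title gives TC. Its excitatory cortical neuron markers averaged 9.02, against 10.47 to 11.17 in the other TC mice. The WT mouse of array A averaged 13.44 over 7 thalamus markers, against 9.42 to 12.74 in the other WT mice, and 10.09 over the excitatory markers, against 11.06 to 11.39. The channel labels of arrays J and K also contradict their titles. The mouse titled T on array J, labelled TC, averaged 9.13 over the astrocyte and 10.03 over the microglia markers, as intact mice did. The mouse titled TC on array K, labelled T, averaged 12.34 and 12.13, as lesioned mice did. For these 2 mice the markers go with the titles. Titles were used.

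Of the 40 fitted genes, 7 in the TC mouse of array I and 10 in the WT mouse of array A lay above all 20 other mice, where 11.5% and 10.1% of all features did. In the same mice 6 and 4 genes lay below, where 7.91% and 7.45% of all features did. Vamp1, a vesicle SNARE abundant in brainstem and spinal cord, was at 15.12 in the TC mouse and 14.64 in the WT mouse, against 11.02 to 13.61 in the others. Stx1a, a plasma membrane SNARE, was at 9.85 and 10.63, against 10.92 to 13.46. Rab3b, a Rab3 isoform, was at 11.58 and 12.04, against 12.82 to 14.19. Both mice are thus the highest for Vamp1 and the lowest for Stx1a and Rab3b.

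**Figure D1:**
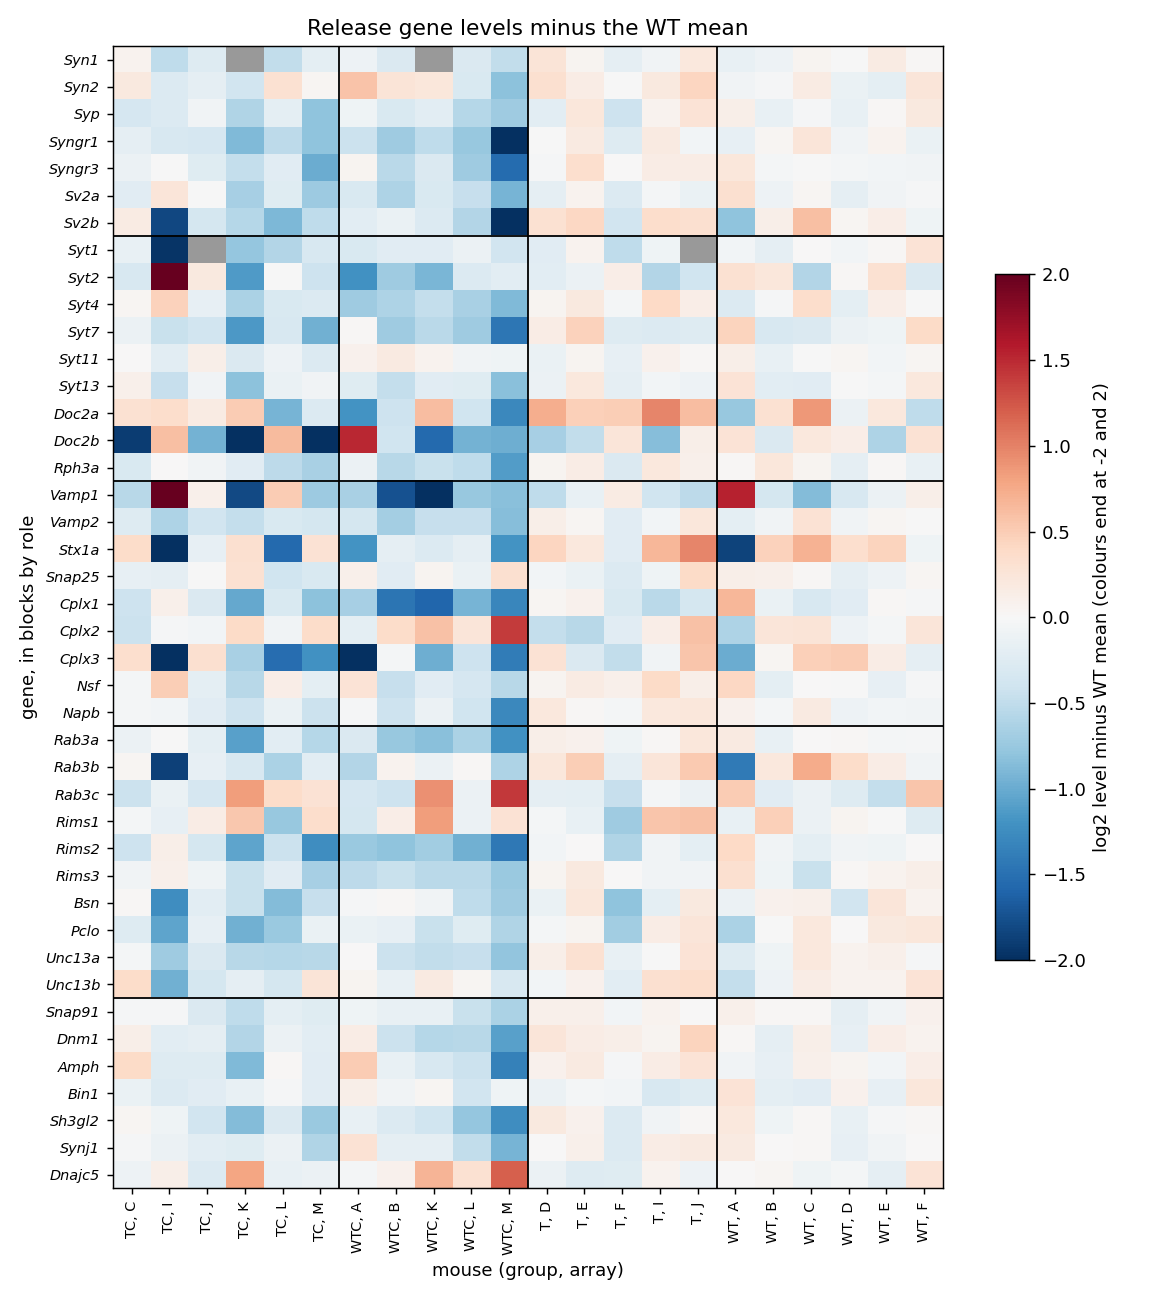
Level of each release gene in each mouse minus the mean of the 6 WT mice (log2 difference by colour, grey for no value), with genes in rows by role and mice in columns by group and array. The TC mouse of array I and the WT mouse of array A share extremes in Vamp1, Stx1a and Rab3b, and the WTC mouse of array M has the lowest mean level of all 22 mice, 11.99.

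The lesion in wild type mice was addressed by WTC minus WT. Genes for vesicle fusion (Cplx1, Vamp2), for Rab3 and its RIM partner (Rab3a, Rims2) and for the synaptotagmin Syt4 were lower in every WTC mouse than in any WT mouse, with log2 ratios of -0.98 to -0.48. The calls rest on a separate-channel fit, and no member passed the ratio fit at the same threshold. All WT mice were on slide 1, with the WTC mice of arrays A and B. The WTC mice of arrays K, L and M were on slide 2. Of the TC mice only that of array C was on slide 1. Lesion and slide are therefore partly mixed in the non-overlap of levels and in the separate-channel calls. The ratio was negative for 34 and positive for 6 of 40 genes, as for 49.4% and 50.6% of all features, with a median of -0.26 against 0.00313 over all features. In the limma ratio fit 0 genes passed an adjusted p of 0.05, where 0% of features were called lower and 0.0231% higher. At an unadjusted p under 0.05, 9 genes were lower and 0 higher, against 6.91% and 12.6% of features. The count of lower genes at the adjusted threshold was 4 without array K and 1 without array I, where 1.38% and 0.762% of features were called lower. The separate-channel fit of limma, which reads each channel as a sample and has 17 residual degrees of freedom against 7, called 14 genes lower and 0 higher, against 12% and 14.6% of features. With array as random block and slide added, 8 genes were called lower, against 4% of features. In 8 genes all WTC mice lay below all WT mice and in 0 above, against 6.99% and 9.36% of features.

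Cplx1, a complexin that clamps and promotes SNARE fusion, was at 13.87, 13.99, 14.16, 14.52 and 14.79 in WTC mice, against 15.14, 15.39 and 16.13 in WT mice (for groups of 6, here and below, the lowest, the median and the highest mouse). The groups do not overlap. Its ratio was -0.98 ± 0.21 (adjusted p = 0.0952, limma ratio fit), and -1.14 in the separate-channel fit (adjusted p = 0.000641). Without the WT mouse of array A and the TC mouse of array I the separate-channel ratio was -1.04 ± 0.16.

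Vamp2, the main vesicle SNARE of forebrain synapses, was at 14.10, 14.27, 14.49, 14.50 and 14.61 in WTC mice, against 14.76, 14.92 and 15.25 in WT mice. All WTC mice were lower. The ratio was -0.54 ± 0.14 (limma adjusted p = 0.113 in the ratio fit and 0.00112 in the separate-channel fit). Syt4, a synaptotagmin that binds calcium weakly, was at 10.14, 10.30, 10.38, 10.40 and 10.54 in WTC mice, against 10.74, 11.002 and 11.37 in WT mice. These groups also stand clear of each other, with a ratio of -0.48 ± 0.14 (limma adjusted p = 0.129 and 0.00437 in the same fits).

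Rab3a, a vesicle Rab of most synapses, was at 15.13, 15.50, 15.58, 15.71 and 16.04 in WTC mice, against 16.19, 16.33 and 16.51 in WT mice, with a ratio of -0.49 ± 0.15. Rims2, an active zone scaffold that binds Rab3, was at 8.27, 8.74, 8.89, 8.95 and 8.998 in WTC mice, against 9.50, 9.63 and 10.10 in WT mice, with a ratio of -0.70 ± 0.21. Neither pair of groups overlaps. The separate-channel fit called both (limma adjusted p = 0.00368 for Rab3a and 0.00288 for Rims2), and the ratio fit neither (0.135 and 0.131). Rims3, a short RIM form, was at 6.48, 6.67, 6.68, 6.68 and 6.78 in WTC mice, against 6.77, 7.26 and 7.53 in WT mice. Its groups overlap by 1 mouse, and its ratio was -0.34 ± 0.15, called in the separate-channel fit (limma adjusted p = 0.0081). Without array A the Rims3 ratio was -0.12.

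In the following, calls are those of the separate-channel fit and values are ratios of the ratio fit. Among vesicle membrane genes, the synaptogyrins Syngr1 (-0.61) and Syngr3 (-0.35) and the vesicle glycoprotein Sv2a (-0.37) were called lower in the separate-channel fit, 3 of 6 measured. Synaptophysin (Syp) was at -0.25, Sv2b at -0.37 and the synapsin Syn2 at 0.10. Syn1, fitted only where missing values are kept, was at -0.15 ± 0.15. A second Syngr1 probe read 1.17, opposite in sign to the probe used. Of 8 calcium sensor genes, Syt4 and the Rab3 effector Rph3a (-0.45) were called, and the others ran from -0.46 (Doc2a) over -0.36 (Syt2), -0.27 (Syt13), -0.27 (Syt7) and 0.05 (Doc2b) to 0.12 (Syt11). Syt1, the main fast calcium sensor of forebrain release, was at -0.34 ± 0.32 with missing values kept.

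Of 9 SNARE and fusion genes, Vamp2, Cplx1 and the SNAP protein gene Napb (-0.34) were called. Vamp1 was at -0.94 ± 0.50, Cplx3 at -0.68 ± 0.44 and Stx1a at -0.64 ± 0.64, with Nsf, which takes used SNARE complexes apart, at -0.18 and Snap25 at -0.12. Of 10 Rab3 and active zone genes, all with negative ratios in the ratio fit, Rab3a, Rims2, Rims3 and Unc13a (-0.20) were called in the separate-channel fit. The others ran from -0.36 (Rab3c) over -0.21 (Rims1), -0.15 (Pclo), -0.15 (Rab3b) and -0.14 (Bsn) to -0.05 (Unc13b). In the separate-channel fit Rab3c was at 0.11 and Rims1 at 0.05, positive there, as in the authors' deposited table (0.29 and 0.21). Of 7 endocytosis and chaperone genes, the dynamin gene Dnm1 (-0.26) and Sh3gl2 (-0.26) were called. Synj1 was at -0.18, Snap91 at -0.18, Bin1 at -0.01 and Amph at 0.01.

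The 3 members with the smallest p among positive ratios passed neither fit. Syt11 was at 14.35, 14.36, 14.50, 14.51 and 14.61 in WTC mice, against 14.28, 14.45 and 14.55 in WT mice. Dnajc5, a vesicle chaperone, was at 15.45, 15.58, 15.79, 16.18 and 16.70 in WTC mice, against 15.31, 15.48 and 15.77 in WT mice. Cplx2 was at 15.82, 16.25, 16.39, 16.61 and 17.42 in WTC mice, against 15.40, 16.12 and 16.28 in WT mice. All 3 overlap between groups, and the probes of Cplx2 and of Dnajc5 disagree in sign.

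**Figure D2:**
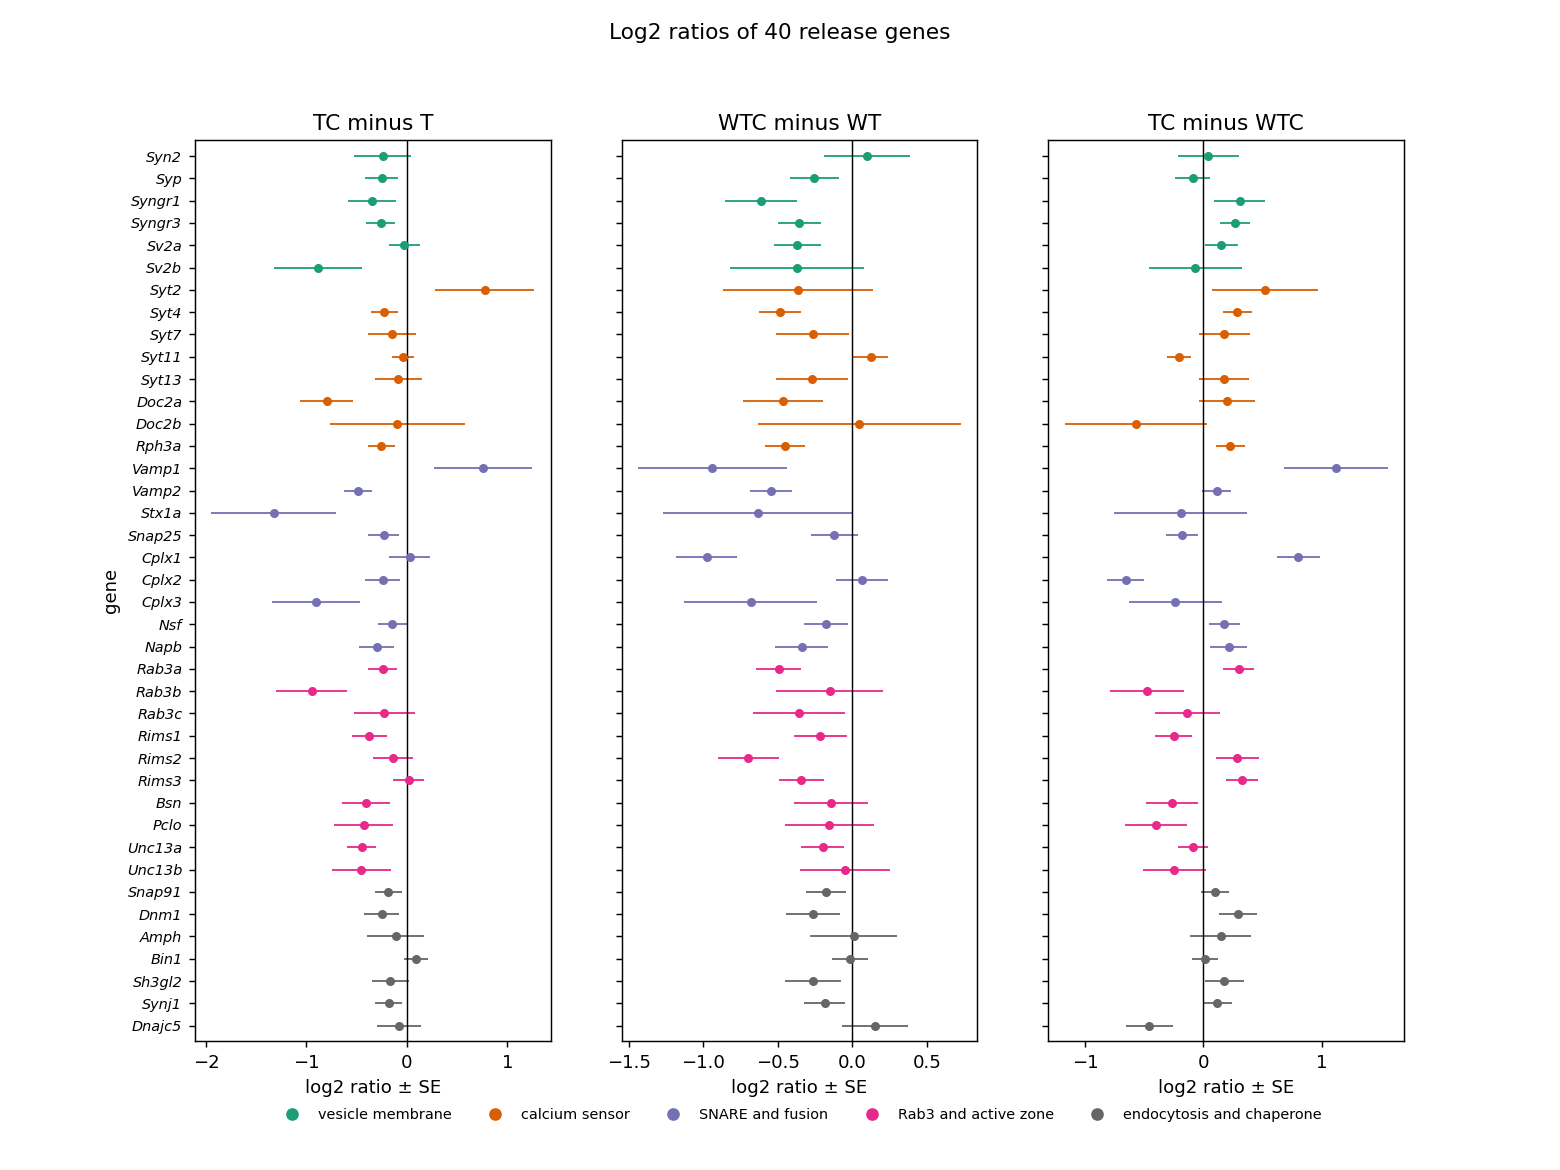
Log2 ratio ± SE of the 40 fitted release genes in the ratio fit for TC minus T, WTC minus WT and TC minus WTC, with genes ordered by role. Cplx1 is at 0.03 in TC minus T and -0.98 in WTC minus WT, while Vamp2 is at -0.49 and -0.54. In a separate-channel fit, not drawn, without both mice that stood apart, Cplx1 was at -0.30 in TC minus T.

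Markers of other cells also differed between lesioned and intact mice, some of them unevenly from mouse to mouse. The 12 reactive astrocyte markers all had positive ratios, with a median of 1.52 in TC minus T and 2.19 in WTC minus WT, and the 11 microglia and macrophage markers had medians of 0.70 and 1.28. Pan-neuronal markers had a median of -0.21 in TC minus T, with 11 of 14 negative, and -0.45 in WTC minus WT, with 13 of 14 negative. Postsynaptic genes had a median of -0.36 in TC minus T, with 18 of 19 negative, and -0.12 in WTC minus WT, with 16 of 19 negative. Inhibitory neuron markers had a median of -0.29 in both comparisons, with 9 of 11 negative in each. Excitatory cortical neuron markers had a median of -0.95 in TC minus T, with 13 of 15 negative, and -0.16 in WTC minus WT, with 11 of 15 negative. Their mean was 9.02 in the TC mouse of array I and 10.47 to 11.17 in the other TC mice, against 10.90 to 11.61 in T. It was 10.09 in the WT mouse of array A and 11.06 to 11.39 in the other WT mice. The 5 blood markers were all negative, with medians of -0.52 in TC minus T and -0.86 in WTC minus WT. The 9 choroid plexus and ependyma markers were all positive, with medians of 1.37 and 2.16. Of those 9 markers, 4 were at an unadjusted p under 0.05 in WTC minus WT and 0 in TC minus T (limma). Their mean ranged over 7.48 to 12.12 in TC, 8.53 to 12.23 in WTC, 7.67 to 9.41 in T and 7.44 to 12.08 in WT. Striatum markers had a median of -1.43 in TC minus T and -0.80 in WTC minus WT. The mean over striatum markers ranged over 9.39 to 11.94 in TC, 8.89 to 12.66 in WTC, 9.51 to 12.31 in T and 9.82 to 13.23 in WT. The part of these markers in the release gene ratios was not tested.

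The lesion in transgenic mice was addressed by TC minus T. The vesicle SNARE gene Vamp2 and the priming gene Unc13a were lower in TC mice, at log2 ratios of -0.49 and -0.45, called in the separate-channel fit and not in the ratio fit. Ratios were negative for 35 and positive for 5 of 40 genes, as for 48.8% and 51.2% of features, with a median of -0.24 against 0.00485 over all features. The limma ratio fit called 0 genes at an adjusted p of 0.05 (0% of features in each direction). At an unadjusted p under 0.05, 4 genes were lower and 0 higher, against 4.97% and 6.95% of features. The separate-channel fit called 2 genes (5% of members) lower and 0 higher, against 2.54% and 4.78% of features. With arrays I, J and K grouped by their channel labels the median was 0.14. Vamp2 alone (2.5% of members) had non-overlapping groups, lower in TC, where 2.75% of features were wholly lower and 2.13% wholly higher. Neither count sets the members clearly apart from all features.

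Vamp2 was at 14.33, 14.59 and 14.70 in TC mice, against 14.73, 14.90, 14.998, 15.07 and 15.18 in T mice, with a ratio of -0.49 ± 0.14 (limma adjusted p = 0.294 in the ratio fit and 0.0147 in the separate-channel fit). Unc13a, which primes vesicles for fusion, was at 7.54, 7.71 and 8.22 in TC mice, against 8.12, 8.24, 8.37, 8.53 and 8.56 in T mice. Only the highest TC mouse reaches the T range. Its ratio was -0.45 ± 0.14 (limma adjusted p = 0.315 and 0.0169 in the same fits). Without both mice that stood apart, the separate-channel fit called 5 genes lower, Vamp2 at -0.41, Unc13a at -0.48, Syt4 at -0.44, Rab3a at -0.47 and Rab3b at -0.55, where 5.06% of features were lower.

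Doc2a, a calcium sensor of spontaneous release, was at 9.95, 11.12 and 11.39 in TC mice, against 11.35, 11.38, 11.50, 11.61 and 11.86 in T mice, a ratio of -0.80 ± 0.26. Rab3b was at 11.58, 13.19 and 13.48 in TC mice, against 13.26, 13.67, 13.68, 13.93 and 13.97 in T mice. Its ratio of -0.95 ± 0.35 was -0.37 in the ratio fit without array I. All of these groups overlap. Sv2b was at 10.92, 12.21 and 12.91 in TC mice, against 12.36, 13.04, 13.07, 13.10 and 13.17 in T mice, a ratio of -0.89 ± 0.44, which was -0.23 without array I. For Rab3b and Sv2b the lowest TC mouse is that of array I.

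Dnm1 was at 15.91, 16.30 and 16.60 in TC mice, against 16.54, 16.61, 16.64, 16.73 and 16.93 in T mice, and Rab3a was at 15.25, 16.13 and 16.33 in TC mice, against 16.25, 16.36, 16.42, 16.45 and 16.56 in T mice. In both genes 1 TC mouse lies inside the T range. By p, positive ratios were led by Syt2 (0.78 ± 0.49), Vamp1 (0.75 ± 0.49) and Bin1 (0.09 ± 0.12), none of them called. Syt2, a fast calcium sensor, was at 6.43, 7.40 and 9.55 in TC mice, against 6.98, 7.17, 7.36, 7.45 and 7.70 in T mice. Vamp1 was at 11.30, 12.87 and 15.12 in TC mice, against 12.57, 12.59, 12.70, 12.95 and 13.25 in T mice. The highest TC mouse in both is that of array I, and without array I the ratios were -0.13 and -0.09. Bin1, an amphiphysin relative, was at 14.42, 14.51 and 14.67 in TC mice, against 14.37, 14.43, 14.57, 14.64 and 14.64 in T mice.

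The remaining fitted genes passed neither fit in TC minus T. Of the vesicle membrane genes Syngr1 was at -0.35 (0.99 by its second probe), Syngr3 at -0.26, Syp at -0.25, Syn2 at -0.24 and Sv2a at -0.03. Of the calcium sensors Rph3a was at -0.25 and Syt4 at -0.22, with Syt7, Doc2b, Syt13 and Syt11 between -0.15 and -0.04. Of the SNARE genes Stx1a was at -1.32 ± 0.62 and Cplx3 at -0.90 ± 0.43, and Cplx1 was at 0.03 ± 0.20. The TC mouse of array I is the lowest of all mice for Stx1a and Cplx3, and fitted as separate channels, blocked by array, their ratios were -0.61 and -0.51 without both mice that stood apart, against -1.09 and -0.91 with them. In that fit Cplx1 was at -0.30 without both mice, against -0.17 with them. Napb was at -0.30, Cplx2 at -0.24, Snap25 at -0.23 and Nsf at -0.15. Rab3c was at -0.22, Rims2 at -0.14 and Rims3 at 0.02. The endocytosis genes Snap91, Synj1, Sh3gl2 and Amph and the chaperone gene Dnajc5 ran from -0.18 to -0.07. Syn1 and Syt1 were not in the separate-channel fit. With missing values kept, the ratio fit gave -0.28 ± 0.14 and -0.83 ± 0.33 for them. Syt1 lacks a value on array J, and its lowest TC mouse, that of array I, was at 14.08. The other TC mice with a Syt1 value were at 15.27 to 15.89, against 15.55 to 16.11 in T mice. The active zone scaffolds Bsn (-0.41), Pclo (-0.43) and Rims1 (-0.37) and the priming gene Unc13b (-0.45) had negative ratios in the ratio fit. The TC mouse of array I is the lowest of all mice for Bsn, Pclo and Unc13b. Fitted as separate channels, blocked by array, the ratios with all mice were -0.40 for Bsn, -0.49 for Pclo, -0.13 for Rims1 and -0.35 for Unc13b. Without both mice that stood apart the same fit gave -0.22 for Bsn, -0.35 for Pclo, -0.08 for Rims1 and -0.16 for Unc13b. Other Pclo probes read 0.16, 0.20 and -0.09. Role medians were -0.39 for Rab3 and active zone, -0.26 for vesicle membrane, -0.24 for SNARE and fusion, -0.17 for endocytosis and -0.12 for calcium sensors. In WTC minus WT the same medians were -0.21, -0.36, -0.54, -0.18 and -0.32.

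**Figure D3:**
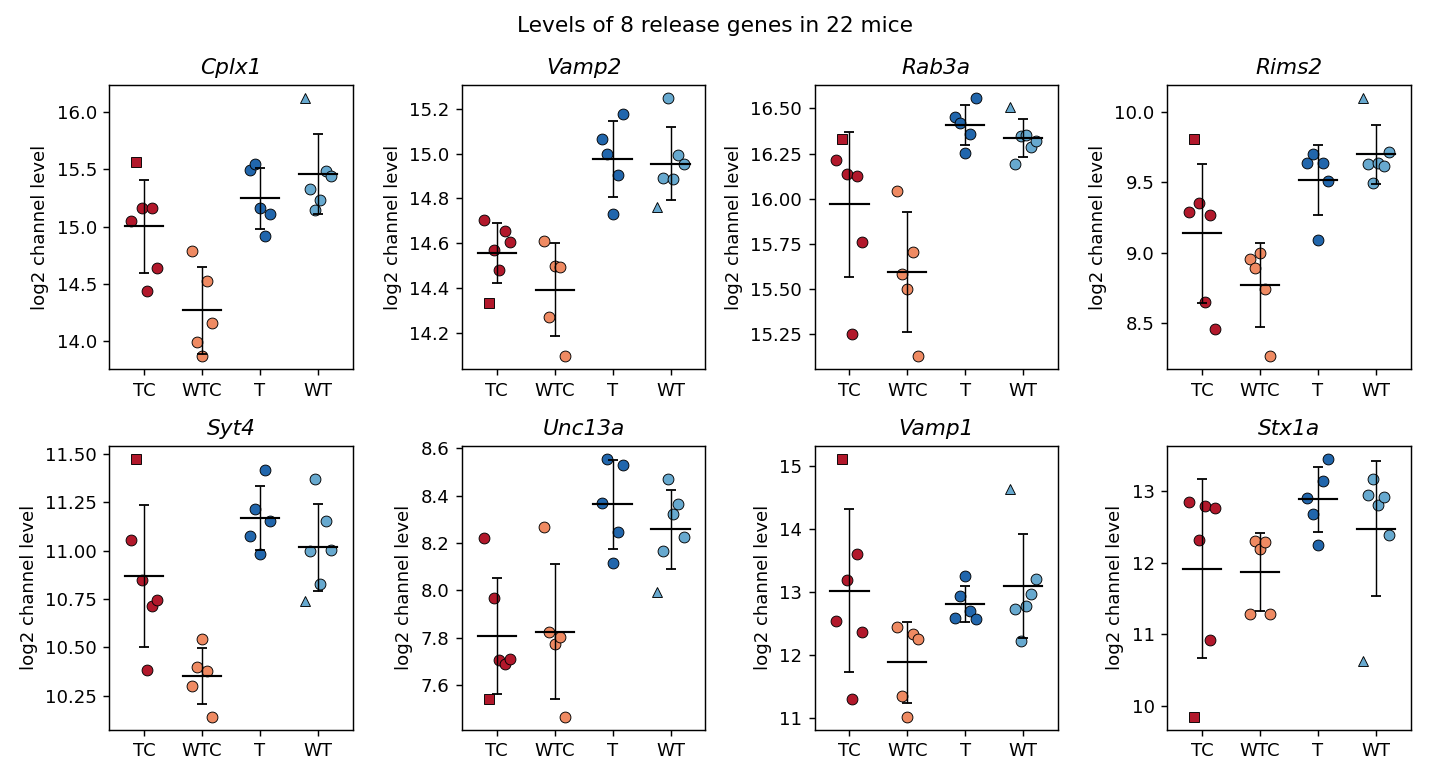
Log2 level of 8 release genes in each mouse, by group (TC, WTC, T, WT), with group mean and SD; the square is the TC mouse of array I and the triangle the WT mouse of array A. All plotted genes but Unc13a have their lowest group mean in WTC, and every WTC mouse lies below every WT mouse in Cplx1, Rab3a, Rims2, Syt4 and Vamp2.

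TC minus WTC compared lesioned mice with and without the transgenes, and the difference between the lesion effects (TC minus T, less WTC minus WT) asked whether the lesion acted unequally. In TC minus WTC the ratio was positive for 24 and negative for 16 of 40 genes, as for 44.4% and 55.6% of features. The difference between lesion effects was positive for 22 and negative for 18, as for 45.4% and 54.6% of features. The limma ratio fit called 0 members in either, against 0% of features, and the separate-channel fit also called 0, against 0.138% of features higher and 0.0231% lower in TC minus WTC and 0% in the difference. At an unadjusted p under 0.05, 5 genes were higher and 2 lower in TC, against 6.1% and 8.66% of features. In the difference between lesion effects 3 genes were positive and 0 negative at that threshold, against 2.9% and 2.43% of features. In TC minus WTC 0 members had non-overlapping groups, against 0.196% of features wholly higher and 0.238% wholly lower.

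Cplx1 was at 14.44, 15.10 and 15.56 in TC mice, against 13.87, 13.99, 14.16, 14.52 and 14.79 in WTC mice. Its ratio was 0.80 ± 0.18 (adjusted p = 0.144, limma ratio fit), and 0.63 ± 0.15 without both mice that stood apart (adjusted p = 0.104, limma separate-channel fit). Cplx1 was at 14.92, 15.11, 15.16, 15.50 and 15.55 in intact T mice, which overlap the TC mice. Its lesion effect was 0.03 ± 0.20 in TC minus T and -0.98 ± 0.21 in WTC minus WT, a difference of 1.002 ± 0.23 (unadjusted p = 0.0019, adjusted p = 0.807, limma). The highest TC mouse is that of array I. Fitted as separate channels, blocked by array, the TC minus T effect was -0.17 ± 0.19 with all mice and -0.30 ± 0.16 without both mice. The difference between lesion effects was 0.98 ± 0.26 with all mice and 0.74 ± 0.20 without both in that fit.

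Vamp1 was at 11.30, 12.87 and 15.12 in TC mice, against 11.02, 11.36, 12.26, 12.33 and 12.45 in WTC mice, which overlap, and at 12.22, 12.88 and 14.64 in WT mice. It differed by 1.12 ± 0.44 in TC minus WTC and by 1.69 ± 0.57 between lesion effects (limma adjusted p = 0.298 and 0.807), and by 0.73 and 0.85 in the separate-channel fit without both mice. With all mice that fit, blocked by array, gave 1.15 and 1.54. Rims3 was at 6.55, 7.06 and 7.32 in TC mice, against 6.48, 6.67, 6.68, 6.68 and 6.78 in WTC mice, a ratio of 0.33 ± 0.14. Rims2 was at 8.46, 9.28 and 9.81 in TC mice and 9.09, 9.51, 9.63, 9.64 and 9.70 in T mice, and its lesion effects differed by 0.56 ± 0.23 (limma adjusted p = 0.807). Thalamus markers had a median of 0.74 in TC minus WTC and 1.57 between lesion effects, 6 of 7 positive in the first and 7 of 7 in the second, and 0 at an unadjusted p under 0.05 (limma). In TC minus WTC the 11 striatum markers were all negative (median -1.75, 11 at that threshold), as were the 9 choroid plexus and ependyma markers (median -1.82, 3 at that threshold). The part of these markers in the release gene ratios was not tested.

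Negative in TC minus WTC were Cplx2 at -0.66 ± 0.16 (limma adjusted p = 0.157), Dnajc5 at -0.45 ± 0.20 and Syt11 at -0.21 ± 0.10. Cplx2 was at 15.59, 15.97 and 16.39 in TC mice, against 15.82, 16.25, 16.39, 16.61 and 17.42 in WTC mice, and the highest WTC mouse is that of array M. Its 4 probes read -0.66, -0.52, -0.46 and -0.04. Dnajc5 was at 15.22, 15.39 and 16.28 in TC mice, against 15.45, 15.58, 15.79, 16.18 and 16.70 in WTC mice, and its probes read -0.45, 0.05 and 0.19. Without array M the Dnajc5 ratio was -0.15. Syt11 was at 14.13, 14.28 and 14.54 in TC mice, against 14.35, 14.36, 14.50, 14.51 and 14.61 in WTC mice. The groups overlap in all 3 genes. By p, negative differences between lesion effects were led by Rab3b (-0.80 ± 0.41), Unc13a (-0.25 ± 0.17) and Cplx2 (-0.31 ± 0.20), none past the threshold. Rab3b was at 12.83, 12.86, 13.33, 13.47 and 13.52 in WTC mice, against 12.04, 13.63 and 14.19 in WT mice, and Unc13a at 7.47, 7.77, 7.80, 7.82 and 8.27 in WTC mice, against 7.99, 8.27 and 8.47 in WT mice.

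The authors' deposited table gives its own fit of TC minus WTC, in which 9 of 40 members had an adjusted p under 0.05, all positive, against 10.3% of features positive and 6.17% negative. In the authors' deposited table these were Cplx1 (1.003), Vamp1 (1.63), Rab3a (0.68), Syngr1 (0.65), Amph (0.64), Syt4 (0.63), Rims3 (0.60), Dnm1 (0.58) and Nsf (0.52), as log ratios of unstated base. For TC minus T the authors' deposited table called Vamp2 (-0.45) and Unc13a (-0.66) lower and 0 members higher, against 0.504% and 2.41% of features. It rests on the same mice.

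T minus WT compared intact mice with and without the transgenes. Ratios were positive for 22 and negative for 18 of 40 genes, as for 49.2% and 50.8% of features, with a median of 0.03 against -0.00218 over all features. The limma ratio fit called 0 genes, and 0 at an unadjusted p under 0.05 (against 1% of features higher and 1.93% lower), and the separate-channel fit called 0. In 0 genes were the groups separate, against 0.319% of features higher and 0.254% lower. Doc2a was at 11.35, 11.38, 11.50, 11.61 and 11.86 in T mice, against 10.12, 10.93 and 11.75 in WT mice, a ratio of 0.53 ± 0.24. Cplx2 was at 15.47, 15.54, 15.79, 16.14 and 16.60 in T mice, against 15.40, 16.12 and 16.28 in WT mice, a ratio of -0.35 ± 0.16. Both overlap. Syn2 was at 14.96, 15.12, 15.17, 15.29 and 15.40 in T mice, against 14.78, 14.92 and 15.21 in WT mice (0.38 ± 0.26). Dnm1 was at 16.54, 16.61, 16.64, 16.73 and 16.93 in T mice, against 16.31, 16.54 and 16.63 in WT mice (0.28 ± 0.16). Syt2 was at 6.98, 7.17, 7.36, 7.45 and 7.70 in T mice, against 6.98, 7.69 and 7.87 in WT mice (-0.62 ± 0.45). These too overlap, as does Rims2 (-0.27 ± 0.18).

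**Figure D4:**
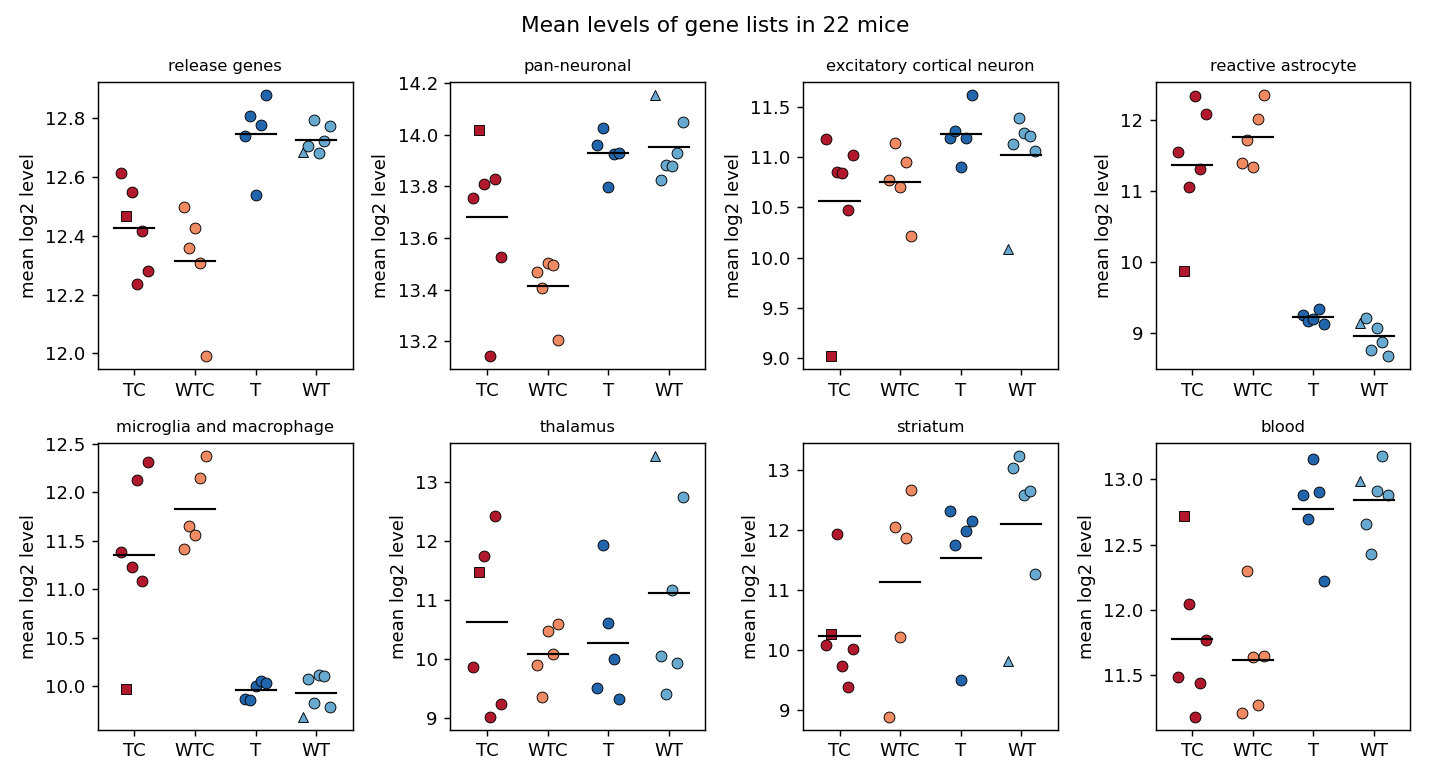
Mean log2 level of the release genes and of 7 marker lists in each mouse, by group, with group mean; the square is the TC mouse of array I and the triangle the WT mouse of array A. Release genes average 12.24 to 12.61 in TC and 11.99 to 12.50 in WTC, against 12.54 to 12.88 in T and 12.68 to 12.79 in WT.

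A wider list of 94 other release genes had a median of -0.10 in TC minus T, 58 negative and 36 positive, and -0.13 in WTC minus WT, 66 negative and 28 positive. The limma ratio fit called 0 of them, and at an unadjusted p under 0.05, 19 were lower and 6 higher in WTC minus WT, against 6.91% and 12.6% of all features, and 11 lower and 6 higher in TC minus T, against 4.97% and 6.95%. The separate-channel fit called 24 lower and 9 higher in WTC minus WT, against 12% and 14.6% of features, and 3 lower and 4 higher in TC minus T, against 2.54% and 4.78%. Vamp8, a SNARE of endosomes and secretory granules, was at 1.09 ± 0.22 in TC minus T and 1.07 ± 0.22 in WTC minus WT. Brsk1, a presynaptic kinase, was at -0.45 ± 0.10 and Rab3il1, a Rab exchange factor, at 1.17 ± 0.31 in WTC minus WT. In TC minus T, Rab27a, a secretory Rab, was at 0.53 ± 0.11 and Sh3gl3, an endophilin, at -0.32 ± 0.09. In TC minus WTC, Sh3gl3 was at -0.38 ± 0.08, the SNARE gene Snap47 at 0.45 ± 0.12 and Sncb, beta-synuclein, at 0.52 ± 0.14. In T minus WT, Sv2c was at -0.47 ± 0.17, Doc2g at -0.35 ± 0.15 and the vesicular GABA transporter gene Slc32a1 at -0.71 ± 0.30. The 11 striatum markers were all negative in T minus WT (median -1.33, 8 at an unadjusted p under 0.05, limma). So were the 7 thalamus markers (median -1.09, 0 at that threshold), where 1.93% of features were lower. The part of these markers in the T minus WT ratios was not tested. Between lesion effects, Vamp7 differed by 0.35 ± 0.13, Sh3gl3 by -0.26 ± 0.10 and Sncb by 0.43 ± 0.17.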

How the data were processed

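Median spot and background intensity values of 11 arrays were read as deposited, per the file headers from Agilent Feature Extraction 10.7.3.1. The deposited log10 ratio of that software, per the file headers, served as an alternative. The authors' deposited table holds log ratios (read as log2, base not stated) together with an adjusted p-value column per comparison (3 in all), and its header names limma. In its WTC minus WT p-value column 766 cells exceed 1, and that column was not used.

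Background was corrected with normexp (offset 50) and arrays normalized by loess in limma 3.58.1 (R 4.3.3). Kept were probes flagged above background in 5 or more of the 22 channels that had a value on each array. Of 55681 probes, 26762 (48.1%) matched 1 symbol. limma's lmFit and eBayes fitted the ratios with terms for T, WTC, TC and dye (7 residual degrees of freedom), with Benjamini-Hochberg adjustment over 25998 features at 0.05. The separate-channel fit used lmscFit (intraspot correlation 0.315). That fit and the printed levels took values that were also normalized between arrays (Aquantile in limma). Scripts were tested on simulated data.

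Members, roles and lists were chosen with earlier results of these data known. Every mouse (the lowest, median and highest in groups of 6) is given for members that passed the ratio fit, the 3 smallest p per direction and comparison, and, by separate channels, the 6 smallest per lesion comparison. Other release genes are named by the 3 smallest p per comparison. Stx1a and the mice that stood apart were chosen after their values were seen. Each mouse was on 1 array here, while the series description speaks of 4 hybridisations of each sample. Alternatives covered background, normalization, filter, probe rule, dye, slide, array weights, variance prior, sex, group labels, and arrays or mice left out.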

Additional observations from a re-analysis of the deposited data

Results flagged for a closer look

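Within groups of 5 or 6 mice, a log2 level was singled out where its gap to the nearest mouse, over the range of the group, passed Dixon's critical value. This held for 11 of 160 gene and group pairs, and chance gives about 5%. In the WTC mouse of array M, these were Syngr1 at 11.01 (nearest mouse 12.31) and Sv2b at 10.75 (nearest mouse 12.16). In the WT mouse of array A, these were Syngr3 at 10.55 (nearest mouse 10.30), Stx1a at 10.63 (nearest mouse 12.39), Cplx1 at 16.13 (nearest mouse 15.49), Nsf at 15.16 (nearest mouse 14.76), Rims2 at 10.10 (nearest mouse 9.71) and Pclo at 12.998 (nearest mouse 13.62). In the T mouse of array F, this was Sv2b at 12.36 (nearest mouse 13.04). In the TC mouse of array I, this was Rab3b at 11.58 (nearest mouse 12.82). In the TC mouse of array K, this was Dnajc5 at 16.28 (nearest mouse 15.61). Of the 11 levels, 6 belong to the WT mouse of array A.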

How the results depend on the processing

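The ratio fit called 0 members in each comparison. Counts elsewhere are of lower calls, each with the percentage of all features called lower in parentheses. In WTC minus WT, array weights gave 15 (15.6%) with 1 more higher, 16 in all, slide 1 alone 5 (2.72%), and dropping arrays I, J and K 5 (1.53%). Separate channels gave 14 (12%), also with array as random block (12.1%), and 8 (4%) with slide added. Dropping single mice from that fit gave 17 (15.7%; TC of array I), 14 (11.5%; T of array F) and 10 (9.93%; WT of array A), and dropping both I and A gave 16 (13.2%). In TC minus T the counts were 3 (1.72%) with array weights, 2 with separate channels (2.54%), with array as block (2.48%) and with slide added (0.739%), then 4 (4.23%), 4 (2.82%), 3 (3.43%) and 5 (5.06%) for the same omissions of mice. Leaving out 1 array gave 0 to 4 in WTC minus WT (1 without array I, 4 without array K, where 0.762% and 1.38% of features were called lower). Omitting the WT mouse of array A, both mice together, and keeping missing values were chosen after seeing the data.

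The WTC minus WT median was -0.46 with median centring, -0.42 without the TC mouse of array I, -0.42 without the WT mouse of array A, -0.43 lacking both and -0.12 with channel-label groups. That of TC minus T was -0.37 without the T mouse of array F, 0.14 with channel-label groups and -0.084 with arrays I, J and K dropped. That of T minus WT was -0.11 with channel-label groups. That of TC minus WTC was 0.34 with median centring and 0.26 with arrays I, J and K dropped, and -0.025 (without array M) to 0.24 (without array K) leaving out 1 array. That of the difference between lesion effects was 0.22, 0.27 and 0.23 with median centring, channel-label groups and I, J and K dropped.

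Single genes turned sign as follows, and the cause was not tested. In WTC minus WT, Cplx2 was -0.025 with the scanner's ratio, -0.15 with median centring and -0.010 with the mean of probes, and -0.086 to 0.16 leaving out 1 array. Dnajc5 was -0.056 with median centring, -0.013 with the mean of probes and -0.0027 on slide 1. Syt11 was -0.098 with median centring and -0.016 to 0.20 leaving out 1 array. In TC minus WTC, Syt11 was 0.060 with median centring and 0.042 on slide 1, and Dnajc5 0.072 on slide 1. In TC minus T, Syt2 and Vamp1 were -0.084 and -0.15 lacking the TC mouse of array I, -0.064 and -0.098 lacking both mice, and -0.42 and -0.35 with arrays I, J and K dropped. Leaving out 1 array gave -0.13 to 0.96 for Syt2 and -0.090 to 0.96 for Vamp1. With channel-label groups Syt2, Sv2b, Rab3a and Dnm1 were -0.045, 0.25, 0.18 and 0.27, and with arrays I, J and K dropped Sv2b and Dnm1 were 0.12 and 0.14. Channel-label groups go against the astrocyte and microglia markers of the relabelled mice of arrays J and K. Slide 2 alone could give neither WTC minus WT nor T minus WT. No paired analysis was possible because replicate numbers name arrays within a pairing and tie no mice across groups.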
